A study of Homo sapiens with 16 samples.

Results

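The genes described here code for the machinery and the supply of DNA replication. They were picked by symbol, and 44 genes of the 25221 listed in the counts are members, each found once by symbol and Entrez identifier. RNA came from 2 human leukemia lines, MOLM13, derived from acute myeloid leukemia, and K562, derived from the blast crisis of a chronic myeloid leukemia. Each line was kept for 4 h with DMSO, the solvent, or with 20 μM Ro 08-2750 (Ro), a small molecule that the study used against the RNA-binding protein MSI2. There were 4 libraries in each of the 4 groups, numbered as pairs 1 to 4 of DMSO and Ro within a line, which gave 16 libraries. The labels name no other agent and no engineered allele in any group. Each line stands for a single patient's leukemia grown in culture, and the labels do not say whether the pairs were separate cultures, so p-values measure only the spread between these libraries.

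Replication starts at origins, where the origin recognition complex, CDC6 and CDT1 load the ring-shaped MCM helicase onto DNA before S phase. CDC45 and the GINS complex turn the ring into an active helicase, polymerase alpha-primase lays down primers, and polymerases delta and epsilon extend them with the sliding clamp PCNA, which the RFC complex loads. Cyclin E and the E2F factors drive the entry into S phase, and many genes of this machinery are transcribed under E2F control in cycling cells such as leukemia lines.

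Since many such genes are known E2F targets, the promoters of the members were searched for E2F-type letters. RefSeq windows of 300 bases on GRCh38.p14, from 250 bases before to 50 after an annotated start, were at hand for 37 of the 44 members, some of them with several starts, which gave 46 windows. An E2F-type match was any of the letters TTTCCCGC, TTTCGCGC, TTTGCCGC or TTTGGCGC on either strand, and a CCAAT match was CCAAT on either strand. The windows of the members whose levels are described most closely below are shown with these matches in capitals, 1 window per gene, taken as the one with the most E2F-type and then CCAAT matches. They are MCM2, MCM7 and RRM2, which were lower with Ro in MOLM13 once the pairs were fitted, and CDC45 and RFC3, which had the smallest p in each direction between the untreated lines.
MCM2: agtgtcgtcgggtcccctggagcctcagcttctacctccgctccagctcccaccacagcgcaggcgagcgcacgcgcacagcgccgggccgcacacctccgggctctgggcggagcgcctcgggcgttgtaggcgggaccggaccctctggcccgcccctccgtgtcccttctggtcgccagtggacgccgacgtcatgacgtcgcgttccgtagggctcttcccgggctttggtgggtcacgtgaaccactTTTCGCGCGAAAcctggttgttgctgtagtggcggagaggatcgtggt
MCM7: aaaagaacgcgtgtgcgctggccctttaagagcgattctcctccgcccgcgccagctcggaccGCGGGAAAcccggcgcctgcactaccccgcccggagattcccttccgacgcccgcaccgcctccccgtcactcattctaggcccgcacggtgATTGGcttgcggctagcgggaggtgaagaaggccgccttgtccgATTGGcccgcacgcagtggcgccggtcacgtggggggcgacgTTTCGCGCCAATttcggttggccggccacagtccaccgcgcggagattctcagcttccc
RRM2: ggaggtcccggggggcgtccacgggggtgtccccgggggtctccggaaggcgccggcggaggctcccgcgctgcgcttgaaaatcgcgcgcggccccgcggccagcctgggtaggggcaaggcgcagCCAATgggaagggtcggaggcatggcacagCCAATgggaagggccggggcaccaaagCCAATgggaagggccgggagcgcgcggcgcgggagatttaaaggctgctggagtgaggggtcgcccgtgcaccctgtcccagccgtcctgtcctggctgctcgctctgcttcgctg
CDC45: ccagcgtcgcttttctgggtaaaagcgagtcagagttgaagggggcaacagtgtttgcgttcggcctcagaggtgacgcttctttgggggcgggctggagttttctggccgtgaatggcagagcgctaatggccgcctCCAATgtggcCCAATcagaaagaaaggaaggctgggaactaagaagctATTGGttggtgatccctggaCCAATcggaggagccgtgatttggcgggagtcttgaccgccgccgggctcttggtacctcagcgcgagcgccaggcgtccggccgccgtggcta
RFC3: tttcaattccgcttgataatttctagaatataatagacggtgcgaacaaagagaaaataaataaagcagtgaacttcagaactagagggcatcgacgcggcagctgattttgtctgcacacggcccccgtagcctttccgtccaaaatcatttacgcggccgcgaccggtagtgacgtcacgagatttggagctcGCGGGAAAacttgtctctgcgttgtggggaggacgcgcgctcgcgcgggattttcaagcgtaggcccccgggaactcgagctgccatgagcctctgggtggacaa
The MCM2 window lies at chr3:127598161-127598460 on the plus strand, and the MCM7 window at chr7:100101348-100101647 on the minus strand. The RRM2 window lies at chr2:10122489-10122788, the CDC45 window at chr22:19479670-19479969 and the RFC3 window at chr13:33817899-33818198, each on the plus strand. In the MCM2 window 2 E2F-type matches, 1 on each strand, overlapped just after the start, and MCM7 held 2 such matches and 3 CCAAT matches, with the E2F-type match nearest the start overlapping a CCAAT match by 1 base. The windows shown for RRM2 and CDC45 held 3 and 4 CCAAT matches, and RFC3 held 1 E2F-type match.

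E2F-type letters were found in 19 of the 46 member windows (41.3%), against 1164 of 35116 windows of all genes (3.31%). In 5 member windows (10.9%) there were at least 2 such matches, against 0.145% of all windows. CCAAT was in 27 member windows (58.7%) and in 34.6% of all windows. Of 77 windows of other replication pathway genes, 28.6% held an E2F-type match. By gene, 19 of the 37 members with a window held an E2F-type match in at least 1 window (51.4%), among them 5 of 11 members that were lower in untreated MOLM13 than in K562, 2 of 3 that were higher and 12 of 23 that missed the threshold. Of the 26 matches, 20 began within 100 bases before the start or after it. A match is a description of letters, and its absence from a window says nothing about binding of a factor.

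**Figure D1:**
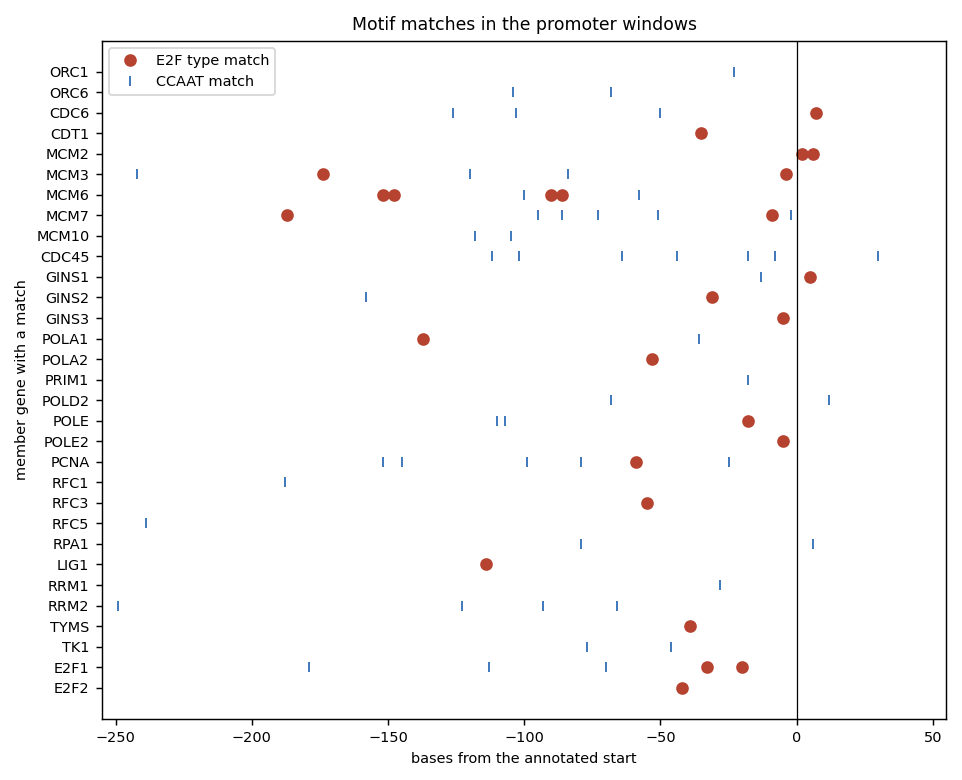
Position of E2F-type (circles) and CCAAT (bars) matches in the promoter windows of the members that held any; the x axis gives bases from the annotated start (0, vertical line), and genes with several windows are drawn in 1 row, each by its own start. Most E2F-type matches, 20 of 26, lie from 100 bases before the start onward.

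Each mRNA was read near its 3′ end, which ties the count to the number of transcripts and not to their length. Levels are therefore given as CPM (counts per 1e+06 counts of a library after TMM scaling) without dividing by length. Total counts ranged from 3143129 to 43571060 per library, and the 44 members together took 0.221% to 0.527% of them. The smallest libraries were K562 DMSO pair 2 with 3143129 and K562 DMSO pair 4 with 4383241 counts. A count of 0 allows up to 3 counts, which is 0.954 CPM of total counts in the smallest library and covers counting error only. Of the members, 43 had 3 or more counts in every library, GINS4 being the exception, and all 44 had the 10 counts in at least 4 libraries that the tests asked for. Most markers of the lines followed the labels, while LYZ, CD33 and EPOR overlapped between the untreated lines. FLT3 was at 142 to 182 CPM in untreated MOLM13 and at 1.72 to 3.77 in K562, and HBG2 at 1170 to 2176 CPM in untreated K562 and at 2.41 to 4.37 in MOLM13. HOXA9 was listed at 0 in K562, GATA1 was at or below 0.134 CPM in MOLM13, and HOXA10 and HBE1 were listed at 0 in every library. Summed over lists of markers, the 10 MOLM13 genes reached 982 to 1491 CPM in untreated MOLM13 and 148 to 230 in untreated K562, while the 10 K562 genes reached 7.59 to 8.81 and 1770 to 2884. Lymphoid markers summed to at most 12.7 CPM and stromal markers to at most 6.35 CPM in any library.

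Pair 4 of MOLM13 stood apart in the members, with DMSO and with Ro alike. The summed level of the 44 genes in untreated MOLM13 was 2949, 2839, 3161 and 5281 CPM in pairs 1 to 4, and with Ro 2727, 2712, 2761 and 4602 CPM. In K562 it was 4614, 4752, 4043 and 3560 CPM with DMSO and 5173, 4564, 4209 and 3707 CPM with Ro. So MOLM13 pair 4 was the only MOLM13 pair whose sum reached the K562 range. In the DMSO library of that pair 27 of the 44 members were over 1.5-fold above the mean of pairs 1 to 3, against 18.6% of all genes tested, and in its Ro library 24 of 44, against 18.2%. MCM2 was at 361 CPM there with DMSO against a mean of 126 in the other pairs, RFC4 at 183 against 60.1 and CDC45 at 39.7 against 14.7. The other way round, PRIM2, the large primase subunit, was at 30.5 against 82.6 CPM. The share of counts on the most abundant transcript, which the table lists without a symbol, ran from 4.11% to 24.3% over the MOLM13 libraries and was lowest, 4.11% and 6.29%, in pair 4. Its part in the member levels was not tested. In K562, 12 of the 44 members were over 1.5-fold below the other pairs in DMSO pair 4, where 25.3% of all genes were, and that library had 0.269% of its counts on the same transcript.

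**Figure D2:**
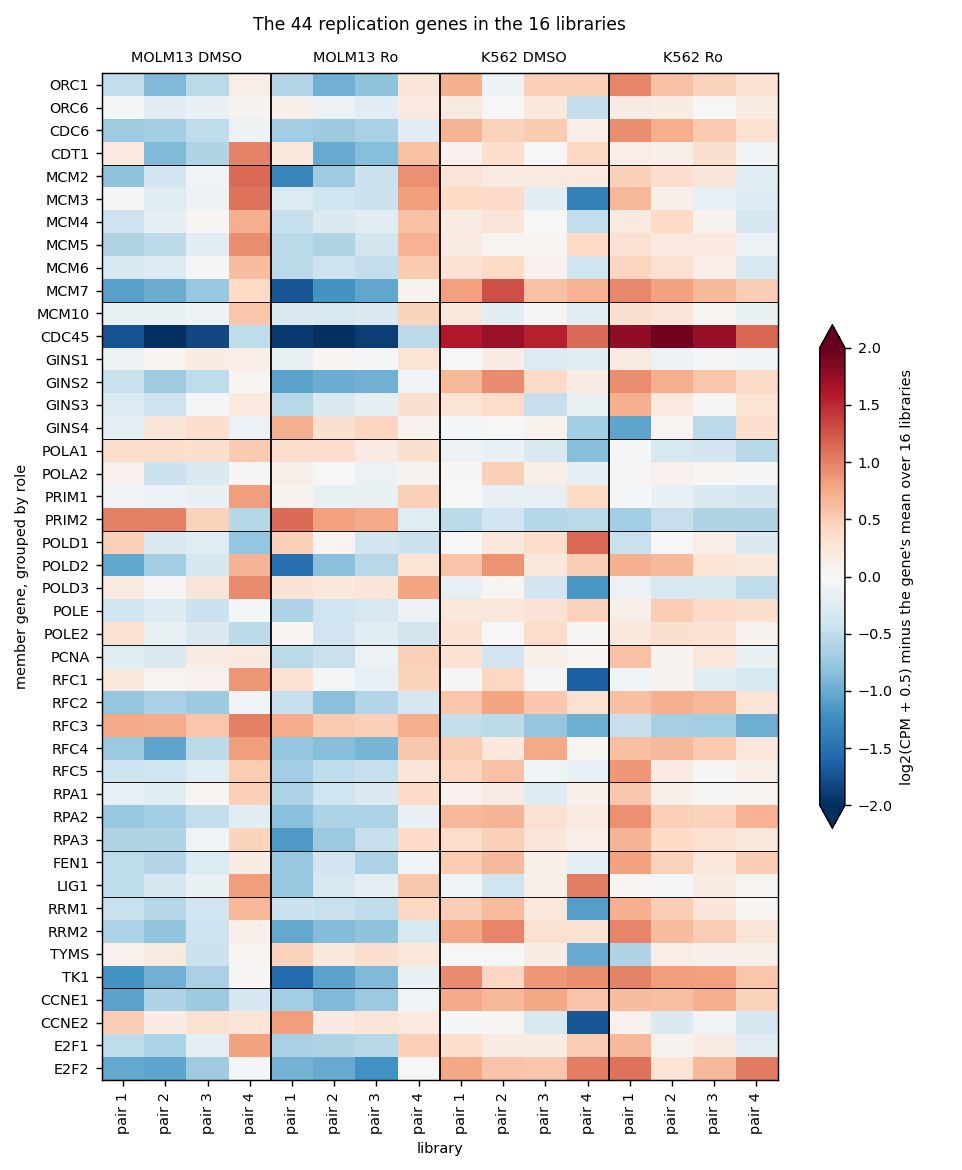
Levels of the 44 members (rows, by role) in the 16 libraries (columns), as log2(CPM + 0.5) minus the gene's mean over the 16 libraries, red above and blue below the mean, with colours saturating at 2 in either direction. MOLM13 pair 4 is redder than pairs 1 to 3 with both agents, and CDC45 and TK1 separate the lines.

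Most of the variance of a member over the 16 libraries lay between the lines or between the pairs of a line. As a share of the sum of squares of log2 CPM, the line took a median of 35.4%, the pair within a line 46.4% and Ro against DMSO within a line 2.95%. The pair was the largest share for 22 members, the line for 20, the rest for 2 and the treatment for 0. The line took 93.9% for RFC3, a clamp loader subunit, and 91.3% for CDC45, while the pair took 81.5% for MCM2 and 81.7% for MCM5, parts of the helicase ring. The pair term has more degrees of freedom than the line or treatment term, which by itself raises its share. The shares over all genes were not computed, so whether they are particular to the members is not known. They describe these 16 libraries and carry no test.

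The untreated lines were compared first, which asks whether the replication genes start from different levels in the 2 leukemias. Of the 44 members, 12 were lower in MOLM13 than in K562 and 4 were higher (edgeR's quasi-likelihood test, Benjamini-Hochberg adjusted p under 0.05, 4 against 4 libraries). Among all 15268 genes tested 20.3% were lower and 21.1% higher in MOLM13. Of the 44 member estimates 30 were below 0, against 50.2% of all genes. The median log2 difference of the members, MOLM13 minus K562, was -0.24, against a median of -0.01 over all genes. In bulk RNA, fewer cells of a kind that expresses these genes and less of their RNA per cell cannot be told apart. The libraries of the lines did not overlap for 11 members that were lower in MOLM13 (18.6% of all genes) and for 3 that were higher (20.6%).

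**Figure D3:**
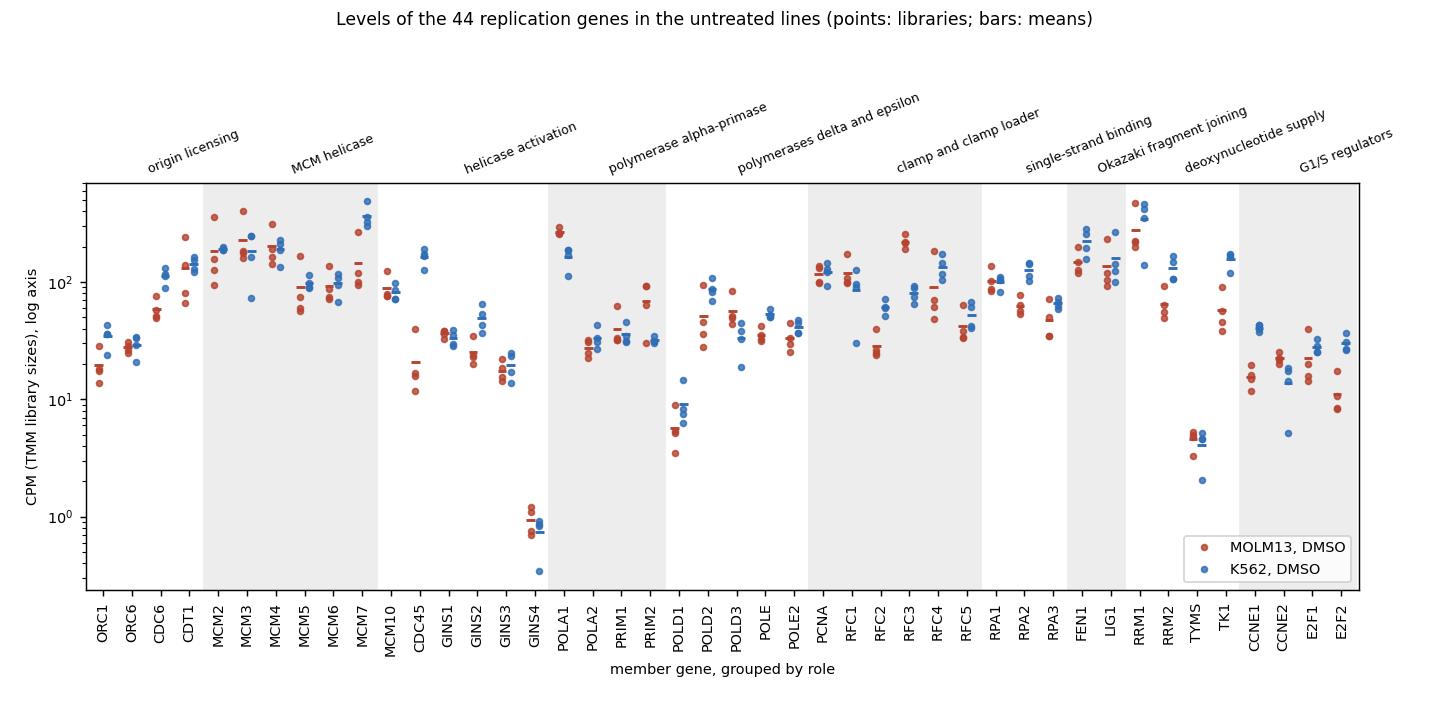
CPM of each member in the 4 MOLM13 (red) and 4 K562 (blue) DMSO libraries on a log axis, grouped by role, with bars at the group means. RRM1, MCM7 and POLA1 are highest and GINS4, TYMS and POLD1 lowest, and CDC45 shows the widest gap between the lines.

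Over the 8 untreated libraries RRM1, the large subunit of ribonucleotide reductase, had the highest mean level of the members, 310 CPM, followed by MCM7 with 256 CPM and POLA1 with 216 CPM. RRM1 was at 219, 200, 225 and 471 CPM in MOLM13 pairs 1 to 4 and at 419, 460, 348 and 139 CPM in K562, so the groups overlapped because the fourth libraries went opposite ways. At the low end stood POLD1, the catalytic subunit of polymerase delta, with 7.45 CPM, TYMS, thymidylate synthase, with 4.34 CPM, and GINS4 with 0.843 CPM. TYMS was at 4.93, 5.31, 3.32 and 4.78 CPM in MOLM13 and 4.57, 4.59, 5.16 and 2.06 CPM in K562. GINS4, a subunit of the helicase cofactor, was at 0.704, 1.11, 1.21 and 0.758 CPM in MOLM13 and 0.837, 0.861, 0.927 and 0.343 CPM in K562. The lines overlapped for both of these genes, and the lowest count of GINS4 in any library was 2. Of the bases at the 3′ ends of TYMS, taken as up to the last 500 of each final exon in GENCODE 29, 100% were shared with ENOSF1 on the opposite strand, and for CCNE2 66.7% were shared with INTS8 on the opposite strand. The other 42 members shared less than 50% of them, and POLD1 and GINS4 shared 0%. How the authors' counting treated shared bases is not given in the sources used here, so the counts of TYMS and CCNE2 are uncertain.

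CDC45, which joins the MCM ring in the active helicase, differed most. It was at 16.6, 11.7, 15.7 and 39.7 CPM in MOLM13 pairs 1 to 4 and at 174, 190, 167 and 126 CPM in K562, so every K562 library was above every MOLM13 library. The log2 difference was -2.96 ± 0.35 (SE), 7.80-fold higher in K562 (edgeR, adjusted p = 1.46e-05). Of the other helicase activation genes only GINS2 was called, at 25.4 ± 6.2 CPM in MOLM13 and 49.4 ± 12.1 CPM in K562 (SD, n = 4), with a log2 difference of -0.95 ± 0.24. GINS1 had 36.4 and 33.1 CPM, GINS3 17.6 and 19.7 CPM, and MCM10, which helps to start the helicase, 89.0 and 82.1 CPM, none of them past the threshold.

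Of the 4 genes of S phase entry 2 were lower in MOLM13, CCNE1 and E2F2, and of the 4 of deoxynucleotide supply 2 were lower, TK1 and RRM2. CCNE1, a cyclin that activates CDK2, was at 11.7, 16.1, 14.9 and 19.7 CPM in MOLM13 and 42.7, 39.9, 43.4 and 37.6 CPM in K562, which do not overlap. It was 2.61-fold higher in K562 (log2 difference -1.38 ± 0.20, edgeR adjusted p = 9.64e-05). E2F2, a transcription factor of the E2F family, was at 8.45, 8.27, 10.6 and 17.5 CPM against 30.6, 26.7, 26.4 and 36.7 CPM, and 2.67-fold higher in K562 (adjusted p = 0.000741 by edgeR). TK1, the thymidine kinase of the salvage route, was at 38.6, 45.6, 56.7 and 90.6 CPM against 172, 119, 163 and 170 CPM, and 2.70-fold higher (edgeR adjusted p = 0.000748). In all 3 genes the highest MOLM13 library was pair 4, and it was still below the lowest K562 library. RRM2, the small subunit of ribonucleotide reductase, was at 65.2 ± 18.9 CPM in MOLM13 and 132 ± 31.2 CPM in K562 (SD, n = 4), a log2 difference of -1.01 ± 0.25. The other members of these families were not past the threshold. CCNE2 was at 22.3 CPM in MOLM13 and 13.9 CPM in K562 with libraries that did not overlap but an adjusted p of 0.0955 by edgeR, and E2F1 was at 22.6 and 28.0 CPM (edgeR adjusted p = 0.451).

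In the licensing factors and the helicase ring the called members were CDC6, ORC1 and MCM7, each lower in MOLM13. CDC6, a loader of the ring, was at 58.7 ± 12.4 CPM in MOLM13 and 113 ± 18 CPM in K562, and ORC1, the largest subunit of the origin recognition complex, at 19.4 ± 6.3 and 34.8 ± 7.8 CPM (SD, n = 4). Their log2 differences were -0.94 ± 0.21 and -0.85 ± 0.26 (SE). MCM7 was at 94.1, 101, 118 and 266 CPM in MOLM13 and at 356, 490, 302 and 324 CPM in K562, 2.54-fold higher in K562 (edgeR adjusted p = 0.00472). The other 5 ring subunits, which enter the same complex in equal number, had estimates between -0.13 and 0.34 on the log2 scale, none past the threshold. CDT1 was at 133 ± 81 and 143 ± 20 CPM and ORC6 at 27.7 ± 2.5 and 29.2 ± 6.0 CPM. The interval of the log2 difference of MCM2 ran from -0.79 to 0.68, so equal levels are not shown for the subunits that missed the threshold.

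Polymerase alpha-primase, which starts each new strand, had 2 of the 4 members that were higher in MOLM13. POLA1, its catalytic polymerase subunit, was at 261, 262, 257 and 294 CPM in MOLM13 and 188, 187, 168 and 113 CPM in K562, with no overlap. The log2 difference was 0.71 ± 0.22 (edgeR adjusted p = 0.0171), and 0.32 ± 0.20 (adjusted p = 0.203 by edgeR) when libraries were scaled to total counts. PRIM2 was at 92.5, 92.0, 63.2 and 30.5 CPM against 31.4, 34.7, 30.5 and 31.7 CPM, so MOLM13 pair 4 lay within the K562 values and the other pairs above them. Its difference was 1.12 ± 0.30 on the log2 scale (edgeR adjusted p = 0.0091), and with total counts 0.70 ± 0.31 (adjusted p = 0.0746 by edgeR). PRIM1, the catalytic primase subunit, was at 40.0 and 35.8 CPM and POLA2, the accessory subunit, at 27.6 and 33.5 CPM, neither past the threshold. POLD3, an accessory subunit of polymerase delta, was at 49.2, 43.6, 51.4 and 83.8 CPM against 38.3, 44.5, 32.8 and 19.1 CPM, which overlap slightly. Its difference of 0.76 ± 0.28 passed at an adjusted p of 0.0418 by edgeR and missed the threshold in 13 of 23 alternatives, among them those without MOLM13 DMSO pair 1, 3 or 4 or K562 DMSO pair 1, 3 or 4, where the log2 difference was 0.53 to 0.83. POLE, the catalytic subunit of polymerase epsilon, was lower in MOLM13, 35.4 ± 4.7 against 53.1 ± 4.3 CPM (SD, n = 4). POLD1, POLD2 and POLE2 had estimates of -0.69, -0.76 and -0.31, none past the threshold.

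Of the clamp loader, RFC3 was higher and RFC2 lower in MOLM13. RFC3 was at 218, 215, 190 and 258 CPM in MOLM13 and 91.9, 88.7, 74.8 and 65.2 CPM in K562, all MOLM13 libraries above all K562 libraries. It was 2.75-fold higher in MOLM13 (log2 difference 1.46 ± 0.21, edgeR adjusted p = 7.26e-05). RFC2, another subunit of the same loader, went the other way with 28.6 ± 7.3 CPM in MOLM13 and 61.1 ± 8.2 CPM in K562, a log2 difference of -1.09 ± 0.22 (SE). RFC1, RFC4 and RFC5 had estimates of 0.49, -0.57 and -0.31 and PCNA, the clamp itself, of -0.07, none past the threshold. Of the single-strand binding complex RPA2 was lower in MOLM13, 62.8 ± 10.8 against 126 ± 22 CPM (SD, n = 4), while RPA1 was at 102 and 101 CPM and RPA3 at 47.8 and 65.8 CPM. FEN1, which trims the flaps of Okazaki fragments, and LIG1, which seals them, had estimates of -0.58 and -0.22 and missed the threshold. Without MOLM13 DMSO pair 4, 22 members passed in place of 16, and 6582 of all genes in place of 6313. With the Ro libraries in place of the DMSO libraries 24 members and 8330 of all genes passed.

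**Figure D4:**
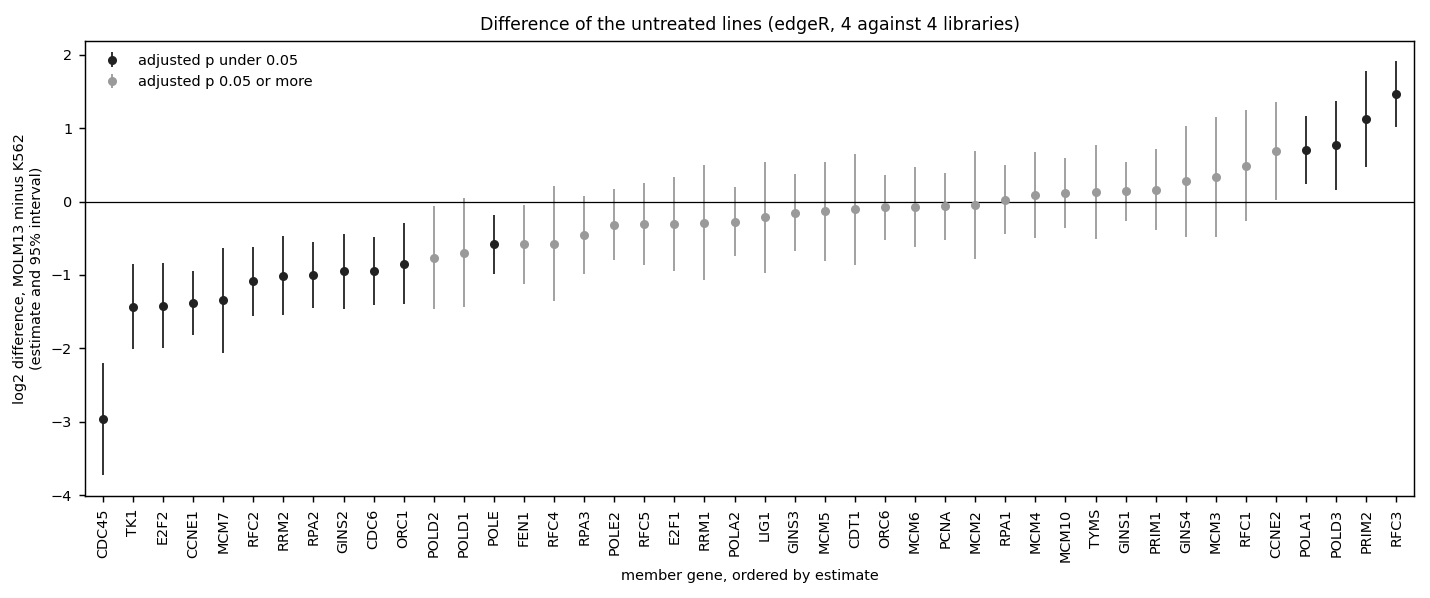
Log2 difference of each member between the untreated lines, MOLM13 minus K562, with its 95% interval from edgeR (4 against 4 libraries), ordered by estimate; black marks have an adjusted p under 0.05 over all genes tested. The 12 black marks below 0 run from CDC45 at -2.96 to POLE at -0.58, and the 4 above 0 are POLA1, POLD3, PRIM2 and RFC3.

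Next came the change with Ro in MOLM13, that is, whether 4 h of the compound moved the replication genes. Without regard to the pairs 0 of the 44 members passed the threshold in edgeR, 0 had an unadjusted p under 0.05 (0.326% of all 15031 genes were lower at that level), and DESeq2 called 0. With the pair number as a block, 3 members were lower, MCM2, MCM7 and RRM2, against 1.17% of all genes called lower, and 0 were higher, against 0.938%. DESeq2 with the block called these and MCM3 lower and 0 members higher, where it called 197 of 15031 genes lower and 69 higher. The blocked fit put 14 members lower at an unadjusted p under 0.05 where 9.65% of all genes were, and 2 higher, TYMS and POLA2, where 7.55% were. Estimates were below 0 for 33 of the 44 members in the blocked fit, against 49.6% of all genes.

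MCM2 went from 94.5, 126, 157 and 361 CPM in DMSO pairs 1 to 4 to 66.7, 101, 123 and 310 CPM with Ro. It was lower with Ro in each pair, although the groups overlapped widely because the pairs differed. The blocked log2 change was -0.33 ± 0.07 (SE), a fall of 20.2% (edgeR adjusted p = 0.0182), against -0.29 ± 0.49 without the block (adjusted p = 1.00 by edgeR). MCM7 went from 94.1, 101, 118 and 266 to 60.8, 87.7, 97.7 and 210 CPM, again lower in each pair, with a blocked log2 change of -0.33 ± 0.08 (edgeR adjusted p = 0.0264). RRM2 went from 55.4, 49.2, 64.1 and 92.0 to 41.9, 46.7, 48.6 and 68.1 CPM, a blocked change of -0.31 ± 0.08 (adjusted p = 0.0419 by edgeR). Its smallest step was in pair 2, -0.07 on the log2 scale, against -0.40 to -0.43 in the other pairs. Without pair 4 the blocked fit called MCM2, MCM7 and GINS2, without pair 2 MCM7 and RRM2, and without pair 1 or pair 3 it called 0 members. In a blocked fit of all 16 libraries, chosen after seeing the data, the changes were -0.35 for MCM2, -0.35 for MCM7 and -0.32 for RRM2, and none passed (edgeR adjusted p of 0.752, 0.769 and 0.817). Leaving out MOLM13 DMSO pair 4 alone, which leaves its Ro partner unmatched, turned the unblocked estimates of MCM2 and MCM7 to 0.24 and 0.12.

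By role, all 6 subunits of the helicase ring had estimates below 0 in the blocked fit, from -0.33 to -0.09, with 2 called, and MCM2, MCM3, MCM4, MCM6 and MCM7 were lower in all 4 pairs. All 6 clamp and loader genes were below 0, from -0.21 to -0.01, with 0 called. RPA1 and RPA3 had -0.24 and -0.24, POLD2 -0.29, GINS2 -0.34 and TK1 -0.19, with adjusted p by edgeR between 0.0667 and 0.196. In all, 15 members were lower with Ro in every pair, against 15.4% of all genes, and 3 were higher in every pair, GINS4, TYMS and POLA2, against 9.77% of all genes. TYMS went from 4.93, 5.31, 3.32 and 4.78 to 6.51, 5.41, 5.99 and 5.51 CPM, a blocked change of 0.38 ± 0.16 (edgeR adjusted p = 0.207), at a level where the smallest MOLM13 library has a limit of 0.348 CPM. POLA2 went from 32.3, 22.6, 24.8 and 30.9 to 33.2, 30.6, 28.0 and 31.9 CPM and PRIM2 from 92.5, 92.0, 63.2 and 30.5 to 100.2, 81.1, 77.7 and 38.6 CPM. Their blocked changes were 0.20 ± 0.09 and 0.16 ± 0.08, neither past the adjusted threshold (0.253 and 0.332 by edgeR). The S phase entry genes CCNE1, CCNE2 and E2F2 had blocked changes of 0.10, 0.06 and -0.08 and E2F1 -0.21, and CDC45 0.03.

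The median log2 change of the 44 members was -0.08 in both fits, against 0.00 over all genes. Once the trend of change on mean level over all genes was taken off, members were read against genes of like level. The median was then -0.06 without and -0.05 with the block. In the blocked fit 30 of 44 members were below the trend, against 7554 of 15031 genes. By pair, the median change was -0.07, -0.07, -0.16 and -0.12 in pairs 1 to 4, against 0, -0.03, -0.03 and -0.02 over all genes. The members' median was below 0 in each pair, and that of all genes at or below 0. Without MOLM13 DMSO pair 4 the unblocked median was 0.11 and without MOLM13 Ro pair 4 it was -0.30, so leaving out either library of the pair that stood apart moved this value by more than its size. With pair 4 left out as a whole the blocked median was -0.07.

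**Figure D5:**
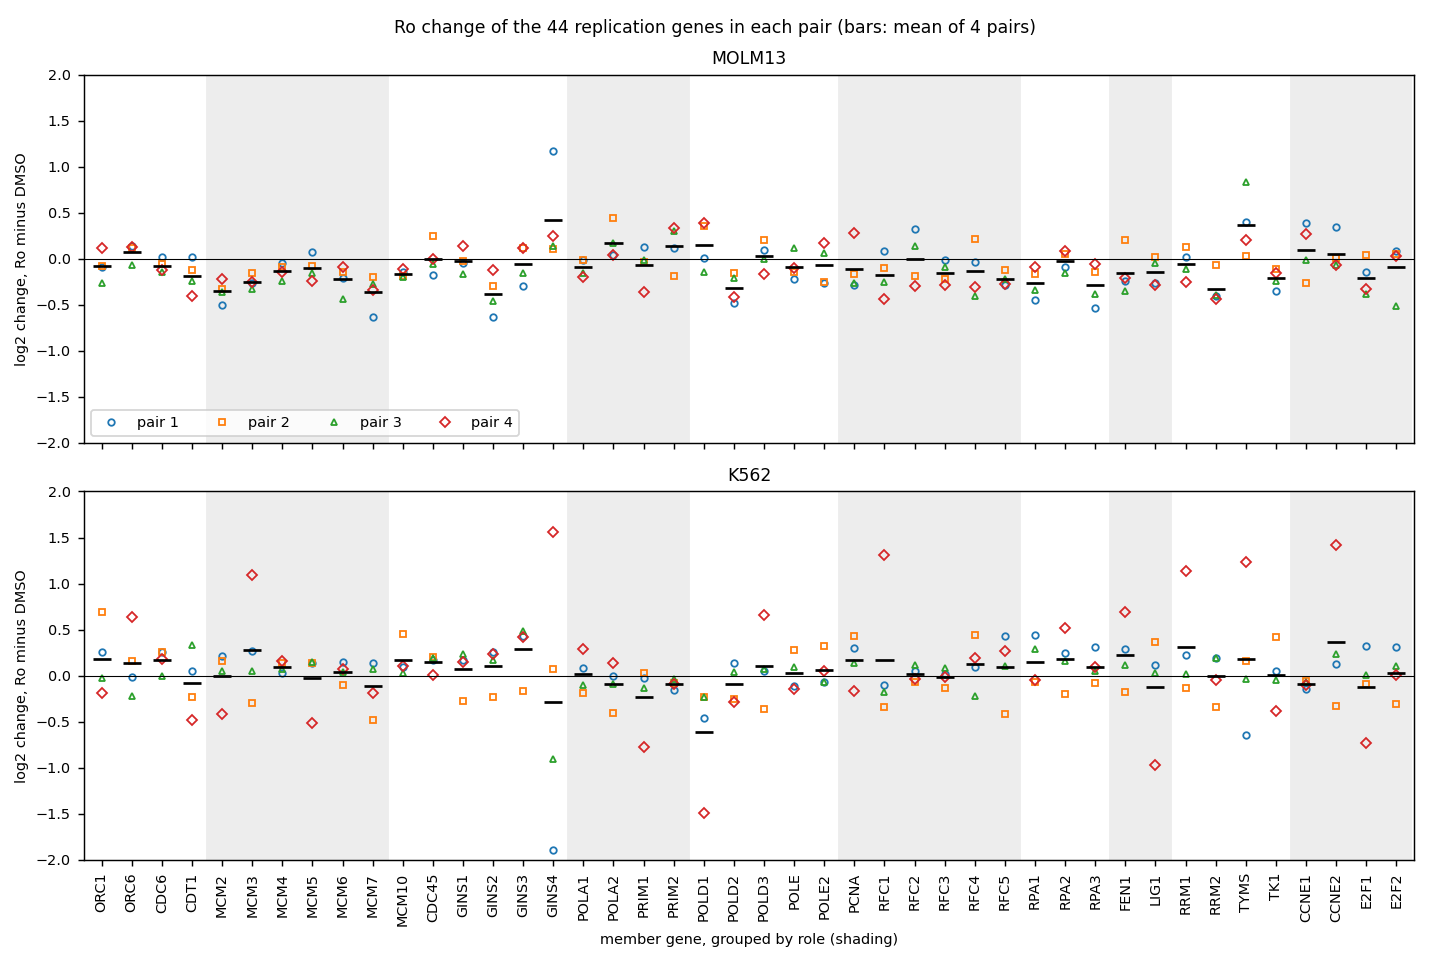
Log2 change with Ro, Ro minus DMSO, of each member in each pair (symbols) and its mean over the 4 pairs (bars), in MOLM13 (top) and K562 (bottom), grouped by role with alternate shading. In MOLM13 the helicase ring genes MCM2, MCM3, MCM4, MCM6 and MCM7 lie below 0 in every pair. In K562, pair 4 lies above the other pairs for MCM3, RFC1, RRM1, TYMS and CCNE2 and below them for POLD1 and LIG1.

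In K562, 0 of the 44 members passed the threshold with Ro, with or without the block, in edgeR or DESeq2. At an unadjusted p under 0.05 only POLD1 was lower, against 0.887% of all 15227 genes without and 1.27% with the block, and 0 members were higher. POLD1 went from 6.33, 7.46, 8.26 and 14.6 CPM with DMSO to 4.56, 6.33, 7.02 and 5.11 CPM with Ro, lower in each pair by -0.46, -0.23, -0.23 and -1.49 on the log2 scale. The largest step was in pair 4, whose DMSO library held 4383241 counts. In pair 2, whose DMSO library held 3143129, the step was -0.23, and the part of depth was not tested. The blocked change was -0.63 ± 0.26 (edgeR adjusted p = 0.947). Estimates were above 0 for 29 of the 44 members in each fit, against 8250 of 15227 genes without and 8153 with the block. The median change was 0.04 without and 0.06 with the block, against 0.02 over all genes. It was -0.01 and -0.02 once the trend with level was removed. MCM4, MCM10 and CDC45 were higher in all 4 pairs (7.47% of all genes) and PRIM2, POLD1 and CCNE1 lower in all 4 (4.41%).

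Like POLD1, the other K562 members of lowest p above and below 0 varied widely between pairs. GINS3 went from 23.2, 24.7, 13.7 and 17.2 to 31.4, 21.95, 19.3 and 23.0 CPM (blocked change 0.30 ± 0.16), higher in pairs 1, 3 and 4. RRM1 went from 419, 460, 348 and 139 to 489, 419, 353 and 306 CPM (0.30 ± 0.22), with a step of 1.14 on the log2 scale in pair 4. Without K562 DMSO pair 4 the unblocked estimate of RRM1 was -0.05. FEN1 went from 258, 282, 194 and 157 to 316, 249, 211 and 252 CPM (0.23 ± 0.17). Among the members below 0, PRIM1 went from 35.0, 31.0, 31.2 and 46.0 to 34.2, 31.7, 28.5 and 26.8 CPM (-0.23 ± 0.17) and GINS4 from 0.837, 0.861, 0.927 and 0.343 to 0.152, 0.912, 0.449 and 1.21 CPM (-0.49 ± 0.55), values near the counting limit. With the K562 pairs 1 and 3 alone, the blocked fit called GINS3 (0.45 ± 0.12, edgeR adjusted p = 0.0107) and RPA1 (0.36 ± 0.09, edgeR adjusted p = 0.0111), both higher with Ro. That setting was chosen after seeing the data and leaves out the smallest libraries, which are DMSO libraries, with their Ro partners. So few libraries say little of a gene's own spread, so these p-values rest mostly on the spread shared over genes. In that setting 418 of all genes passed, so calls were not particular to these members. The members called in MOLM13 had blocked changes in K562 of -0.00 for MCM2 (95% interval -0.37 to 0.36), -0.12 for MCM7 (-0.49 to 0.25) and -0.00 for RRM2 (-0.35 to 0.34).

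Whether the change with Ro differed between the lines was tested as an interaction over all 16 libraries. Of the members 0 passed, with or without the block, by edgeR or DESeq2. In the blocked edgeR fit the change with Ro was lower in MOLM13 than in K562 for GINS2, RPA1, RPA3 and MCM10 (unadjusted p under 0.05). The same held for 2.93% of all 16224 genes. For POLD1 the change was higher in MOLM13 at that level, as for 3.08% of all genes. The difference, MOLM13 minus K562, was -0.47 ± 0.17 for GINS2 and 0.80 ± 0.30 for POLD1 (edgeR adjusted p = 0.766 for each). For MCM2 it was -0.34 with a 95% interval from -0.71 to 0.03, for MCM7 -0.23 (-0.62 to 0.16) and for RRM2 -0.32 (-0.68 to 0.05). The intervals include 0, so a difference between the lines in the change of these genes was not detectable with 4 pairs per line.

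Of 63 other genes of the replication pathway, 58 had enough counts in MOLM13 and in K562. POLD4, NME1, ASF1A and CDK2 were listed at 0 in all 16 libraries and PCLAF had at most 18 counts. In MOLM13 0 of the 58 passed with Ro in either edgeR fit. In the blocked fit 5 above 0 and 12 below 0 had an unadjusted p under 0.05, where 7.55% and 9.65% of all genes did. DESeq2 with the block called 2 lower, and 197 of all 15031 genes. The lowest p values were those of GART, an enzyme of purine synthesis (blocked change -0.28 ± 0.07, edgeR adjusted p = 0.0535), DTYMK, thymidylate kinase (-0.38 ± 0.10, edgeR adjusted p = 0.0559) and RECQL4, a helicase that acts at initiation (-0.30 ± 0.09, adjusted p = 0.0806 by edgeR). In K562 0 passed in edgeR or DESeq2 and 0 had an unadjusted p under 0.05, DNA2, E2F8 and SLBP having the lowest p with changes of 0.27, 0.38 and 0.29. Between the untreated lines 7 of the 58 were higher and 11 lower in MOLM13, against 21.1% and 20.3% of all genes. The median difference of the 58 was 0.00.

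The mean log2 CPM of the 44 members over the 16 libraries was most like that of PGRMC2 and PSMG4 (Pearson r = 0.984 each) and LAS1L (r = 0.979) among 15894 genes. The 16 libraries share 2 lines and 8 pairs, so these values describe a common pattern of lines and pairs and carry no test.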

How the data were processed

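RNA from 16 samples was read from its 3′ ends. Per the submitters' processing notes the tools were Trim Galore, STAR 2.5.3a and SAMtools 1.5 on hg38; the counting program and annotation are not given in the sources used here. The authors deposited whole counts of reads per gene, without normalization, for 25221 genes by Entrez identifier, of which 1425 carry no symbol. The table held 0 spike-in rows, so a change of all genes alike cannot be seen. Total counts ran from 3143129 to 43571060 per library, and precision is lowest for genes near 3 counts.

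Groups and pair numbers came from the labels. A gene entered a test with 10 or more counts in 4 or more of the libraries compared. The test was the quasi-likelihood test of edgeR 4.0.16 under R 4.3.3 (TMM scaling, Benjamini-Hochberg over all genes tested, threshold 0.05), in each line, between the DMSO libraries of the lines, and as an interaction; fold changes come from these fits. No pairing is stated for the RNA-seq test in the sources used here, so the main fit has no block. The pair number in the sample titles marked libraries that moved together: within a line, the departures of 2 libraries with 1 number from the means of their groups correlated at 0.57 on average in MOLM13 (0.384 to 0.831) and 0.282 in K562 (0.11 to 0.417), so blocked values are given beside the others. Libraries of a group were no duplicates (smallest chi-square per degree of freedom 10.1). CPM use TMM library sizes, changes within a pair use log2 CPM with 2 added counts, and trends were removed by loess (span 0.3).

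Alternatives were DESeq2 1.42.0, limma-voom (limma 3.58.1), 3 other scalings, no filter or 50 counts, a fit of all 16 libraries, and leaving out libraries or pairs. Some were chosen after seeing the data: the blocked fit of all 16 libraries, K562 pairs 1 and 3 with the block, and medians under these and under the blocked trend. The fits were run on simulated data with changes of 1 on the log2 scale, larger than the Ro changes called here. How well they find changes of the smaller size was not tested. The members and lists were chosen with earlier results of these data known. Values per library are given for the 3 members of smallest blocked p per direction and line with Ro, the 4 per direction between untreated lines, the 3 highest and 3 lowest in level, and members past the threshold with Ro; other members were named by role. Promoters are RefSeq windows and 3′ ends GENCODE 29, scanned with Python 3.11.15 and pandas 2.3.3; figures used matplotlib.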

Additional observations from a re-analysis of the deposited data

Results flagged for a closer look

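A library far from the other 3 of its group, by Dixon's test at 95%, was found in 13 of 80 groups examined (19 members and their sum in 4 groups). These groups reuse the same 16 libraries, and the 19 members were named partly by results in these data. The 80 are therefore not separate trials, and the count cannot be set against chance. Most of the 13 lay in pair 4 of MOLM13. With DMSO, pair 4 was at 266 CPM for MCM7 where pairs 1 to 3 were at 94.1 to 118, at 62.6 for PRIM1 (31.9 to 33.7), at 471 for RRM1 (200 to 225) and at 294 for POLA1 (257 to 262). With Ro, pair 4 was at 396 CPM for RRM1 (209 to 222), 39.6 for CDC45 (13.9 to 15.1), 17.8 for E2F2 (7.42 to 8.99) and 74.6 for POLD3 (50.2 to 52.5). The summed level of the members was 5281 CPM in DMSO pair 4 (2839 to 3161 in the others) and 4602 CPM in Ro pair 4 (2712 to 2761). POLA1 was low in MOLM13 Ro pair 3, 231 CPM against 256 to 259.

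In K562, TYMS was at 2.89 CPM in Ro pair 1 against 4.98 to 5.13, and GINS4 at 0.343 CPM in DMSO pair 4 against 0.837 to 0.927.

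MCM4, of the helicase ring, and MCM10 were lower with Ro in all 4 MOLM13 pairs and higher in all 4 K562 pairs. The K562 steps ran from 0.03 to 0.16 for MCM4 and from 0.03 to 0.46 for MCM10 on the log2 scale. Over all genes 15.4% were lower in all 4 MOLM13 pairs and 7.47% higher in all 4 K562 pairs. The share of all genes with both was not counted, so whether the pattern is unusual is not known. The interaction, MOLM13 minus K562, was -0.22 ± 0.13 for MCM4 and -0.31 ± 0.14 for MCM10 (blocked edgeR fit, adjusted p = 0.766 for each), so the difference did not pass the correction over all genes.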

How the results depend on the processing

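The count of members changed by Ro in MOLM13, 0 in the unblocked edgeR fit, was 3 with the replicate block and 4 with DESeq2 and the replicate block. It ranged from 0 to 3 when a library, or a pair in the blocked fit, was left out, and was 0 in the fit of all 16 libraries with and without the block. Over all genes it was 0, 1 by DESeq2, 317 with the block, 266 with DESeq2 and the block, and 49 to 358 with the block and a pair left out. The members' median change in MOLM13 was -0.08, -0.035 with total counts, and -0.30 to 0.11 with a library left out, the extremes without Ro pair 4 and DMSO pair 4. In K562 the count was 0, but 2 with pairs 1 and 3 alone and the replicate block (418 genes over all, chosen after seeing the data). The interaction count was 0 in all 33 alternatives, and over all genes 3 by DESeq2 with the block. Between the untreated lines the count of 16 became 6 to 25 when a library, or a pair number in a blocked fit, was left out: 6 without number 1, 8 without number 3, 25 without number 4. Over all genes 6313 became 3233, 3437 and 7071 in these 3 settings, and 5048 to 6582 with a library left out. That block pairs numbers across lines, whose libraries did not move together (mean correlation -0.04, 1 of 8 libraries closest to its own number), and it left 16 with all libraries. There POLD3 missed the threshold (adjusted p = 0.0952 in edgeR) and POLD2 passed it (adjusted p = 0.0453 in edgeR). With Ro the block changed no member call other than MCM2, MCM7 and RRM2 in edgeR and these and MCM3 in DESeq2.

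For Ro, only the members named for the smallest p were followed gene by gene through the alternatives. Among them some estimates turned sign when a library was left out, given here as ranges over all alternatives. In MOLM13 these were MCM2 (-0.89 to 0.24), MCM7 (-0.78 to 0.12) and PRIM2 (-0.14 to 0.34). In K562 they were GINS4 (-1.08 to 0.094) and RRM1 (-0.054 to 0.445). The cause was not tested. Leaving out a library unbalances the pairs; leaving out a pair turned none of these in MOLM13. CDC45, CCNE1, E2F2, TK1 and RFC3 passed in all 23 alternatives of the line comparison, PRIM2 and POLA1 in 19 and POLD3 in 10. GINS4, TYMS and POLD1 had the lowest levels, with lowest counts of 2, 12 and 26 in any library, and the 2 smallest libraries were K562 DMSO libraries. The part of depth in these results was not tested.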
